A study of Mus musculus with 6 samples.

Results

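The GTPases of the immunity-associated protein (GIMAP) family are encoded in the mouse by 8 genes, Gimap1, Gimap3, Gimap4, Gimap5, Gimap6, Gimap7, Gimap8 and Gimap9. They were taken by gene name from deposited tables of 49671 genes, and all 8 were present in both the table of total expression and the table of allelic read counts. RNA was sequenced from CD3+ T cells that were enriched on columns from the spleens of female F1 mus x cast mice. The stimulated group (n = 3) was cultured for 48 h with plate-bound anti-CD3 at 1 µg/ml and soluble anti-CD28 at 10 µg/ml, antibodies that trigger the T cell receptor and its costimulatory receptor. The unstimulated group (n = 3) went straight into TRIzol and was not cultured, so that time in culture and stimulation cannot be told apart. Every animal of both groups had a C57BL/6 mother heterozygous for an Xist deletion and an M. m. castaneus father, a cross used as a model of skewed X inactivation. The C57BL/6 (mus) allele was therefore always the maternal one and the castaneus (cast) allele the paternal one, and effects of strain and of parent of origin cannot be told apart. Ages of the animals are unknown here, and no label says that replicates were pooled or that a given daughter carried the deletion.

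GIMAP proteins share a guanine nucleotide-binding domain and bind GTP as switches or scaffolds on the membranes of lymphocytes. They are known for their part in the survival of resting T cells: mice or rats without Gimap5 lose peripheral T cells, and mouse Gimap1 is needed for mature T and B cells. Mouse Gimap3 and Gimap5 proteins have been tied to members of the BCL-2 family, which set the threshold of mitochondrial cell death, and Gimap6 protein binds the autophagy protein Gabarapl2. Gimap genes are transcribed in B cells and NK cells as well as in T cells.

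The 8 genes lay within 123.6 kb of chromosome 6 on the mm10 build (chr6:48647234-48770851). From the proximal end, Gimap8 (ENSMUSG00000064262) spanned chr6:48647234-48660875, Gimap9 (ENSMUSG00000051124) chr6:48676129-48679114 and Gimap4 (ENSMUSG00000054435) chr6:48684549-48692060, all on the plus strand. Gimap6 (ENSMUSG00000047867) followed on the minus strand at chr6:48701582-48708225. Gimap7 (ENSMUSG00000043931) at chr6:48718621-48724636, Gimap1 (ENSMUSG00000090019) at chr6:48739054-48743795 and Gimap5 (ENSMUSG00000043505) at chr6:48746197-48754210 were on the plus strand. Gimap3 (ENSMUSG00000039264) closed the cluster on the minus strand at chr6:48764464-48770851. A noncoding gene, Gimap1os (ENSMUSG00000044867, chr6:48738346-48741444), ran antisense to Gimap1, and 36.0% of the exon bases of Gimap1 were shared with it or with Gm28053. Whether reads were counted by strand is not stated, so reads of Gimap1 and Gimap1os may not have been told apart. Gm28053, an annotated read-through gene at chr6:48718607-48752644, shared 3.5% of the exon bases of Gimap7 and 3.7% of those of Gimap5. Gimap3 and Gimap5 are close relatives: 190 stretches of 50 bases occurred in both, and 8.1% of all such stretches of Gimap3 occurred in some other gene. Values of Gimap1 are uncertain for this reason, and those of Gimap3 and Gimap5 to a smaller extent.

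The start regions of 4 members are shown because the results turn on them: Gimap7 and Gimap6 had the largest rise and the largest fall in total level, and Gimap8 and Gimap4 the largest shifts between alleles. Each sequence runs 5′ to 3′ over 300 bases around a RefSeq transcription start on GRCm38.p6, the assembly named mm10, on the gene's own strand. Capitals mark letters that match the core motif of RUNX (TGTGGT), ETS (CGGAAG), FOXO (GTAAACA), KLF (CCACCC) or NF-kB (GGGNNTTCC) factors or a TATA box (TATAAA), on either strand.
Gimap7, chr6:48718371-48718670, plus strand: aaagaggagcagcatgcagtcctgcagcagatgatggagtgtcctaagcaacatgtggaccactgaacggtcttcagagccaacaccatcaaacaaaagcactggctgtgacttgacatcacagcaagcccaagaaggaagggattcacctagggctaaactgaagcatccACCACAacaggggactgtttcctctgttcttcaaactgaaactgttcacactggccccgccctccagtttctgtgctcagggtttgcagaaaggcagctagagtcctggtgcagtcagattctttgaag
Gimap6, chr6:48708195-48708494, minus strand: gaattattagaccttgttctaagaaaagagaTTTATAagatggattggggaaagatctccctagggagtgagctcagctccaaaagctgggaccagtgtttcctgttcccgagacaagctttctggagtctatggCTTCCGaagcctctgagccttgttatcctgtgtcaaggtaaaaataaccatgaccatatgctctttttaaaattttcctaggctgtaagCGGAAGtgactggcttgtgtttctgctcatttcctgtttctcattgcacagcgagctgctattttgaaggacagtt
Gimap8, chr6:48646984-48647283, plus strand: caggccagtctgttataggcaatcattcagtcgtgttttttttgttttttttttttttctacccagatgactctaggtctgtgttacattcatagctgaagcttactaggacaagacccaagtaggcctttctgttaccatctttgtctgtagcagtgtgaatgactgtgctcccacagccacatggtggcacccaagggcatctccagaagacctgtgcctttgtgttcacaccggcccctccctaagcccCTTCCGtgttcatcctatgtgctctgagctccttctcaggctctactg
Gimap4, chr6:48684328-48684627, plus strand: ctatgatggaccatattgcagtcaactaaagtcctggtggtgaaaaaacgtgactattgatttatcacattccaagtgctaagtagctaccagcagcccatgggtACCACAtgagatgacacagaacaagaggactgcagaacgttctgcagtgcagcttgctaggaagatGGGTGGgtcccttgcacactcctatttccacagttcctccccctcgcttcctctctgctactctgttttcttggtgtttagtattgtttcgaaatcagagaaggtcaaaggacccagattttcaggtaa
All 8 members were matched in the RefSeq table, Gimap8 with 2 starts. RUNX letters stood in the windows of Gimap7, Gimap4 and Gimap1, against 16.8% of 32851 RefSeq promoters. Those promoters, called all promoters here, do not cover every chromosome. ETS letters stood in those of Gimap6, Gimap8 and Gimap1, against 16.9% of all promoters, and Gimap6 held them at 2 places. KLF letters, present in 31.5% of all promoters, were found for Gimap9, Gimap4, Gimap5, Gimap3 and the other start of Gimap8. FOXO letters were found for Gimap3 alone (3.6% of all promoters), and TATA letters for Gimap6 alone (13.6% of all promoters). The NF-kB letters, present in 5.8% of all promoters, were in none of the 9 windows. No motif was common to the members that rose or to those that fell, and a match of letters is a description and not a binding site.

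The cells were checked against marker genes before the levels were read. All 13 T cell markers tested were detected, with a summed level of 1061 to 1126 RPKM (reads per M reads and per kb of gene length) in stimulated cells and of 982 to 1186 RPKM in unstimulated cells. Summed markers of other cells were present in the unstimulated libraries and lower in the stimulated ones, though not every single marker was lower. The 11 myeloid markers summed to 7.08 to 11.7 RPKM in stimulated and 1168 to 3425 RPKM in unstimulated cells, with Adgre1 and C1qa at 0 in all stimulated libraries. The 10 B cell markers summed to 11.3 to 23.7 RPKM against 128 to 254 RPKM, and the 7 NK cell markers to 10.6 to 15.9 RPKM against 259 to 360 RPKM. Erythroid and platelet markers, 9 in all, summed to 2.32 to 15.4 RPKM in stimulated and 82.7 to 1342 RPKM in unstimulated cells. Of 7 endothelial markers, summed at 4.91 to 6.59 RPKM against 26.0 to 28.4 RPKM, 2 reached the level needed for a test. Of these, Pecam1 was lower in stimulated cells (mean 4.71 against 25.3 RPKM) and Egfl7 higher (1.20 against 0.335 RPKM). Emcn was at 0 in all stimulated libraries but hardly detected in unstimulated ones either (mean 0.00894 RPKM). These cell types moved with the comparison, and their part in the results on GIMAP genes was not tested. In such bulk samples, fewer cells of a type and less RNA per cell cannot be told apart. The unstimulated replicate 3 library stood furthest from its group in allelic counts, with a chi-square per degree of freedom of 24.6 and 19.4 against the other unstimulated libraries, where pairs within a group otherwise gave 5.52 to 8.88.

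The first comparison asked how the level of each GIMAP gene differed after stimulation, with reads of both alleles together. All 8 members passed the filter on low values and the test, with 3 higher (Gimap7, Gimap4, Gimap5) and 5 lower (Gimap6, Gimap9, Gimap1, Gimap3, Gimap8) in stimulated cells, and in no member did the groups overlap. With these libraries such calls were common: of 13288 genes tested with limma, 80.1% passed in either direction, 31.2% were higher, 48.9% were lower, and 83.5% had groups that did not overlap. With a background this high, the count of called members says little about the family. The members' median log2 fold change was -0.50, with a range of -0.82 to 1.39, against -0.24 over all genes tested. That median of all genes depends on the scaling. It was -0.24 with the RPKM as deposited, 0.02 with each library centred on its median and 0.04 with quantile normalisation. Genes called higher and lower numbered 4148 and 6494 as deposited, 5432 and 5206 with centring, and 5394 and 4878 with quantile normalisation.

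**Figure D1:**
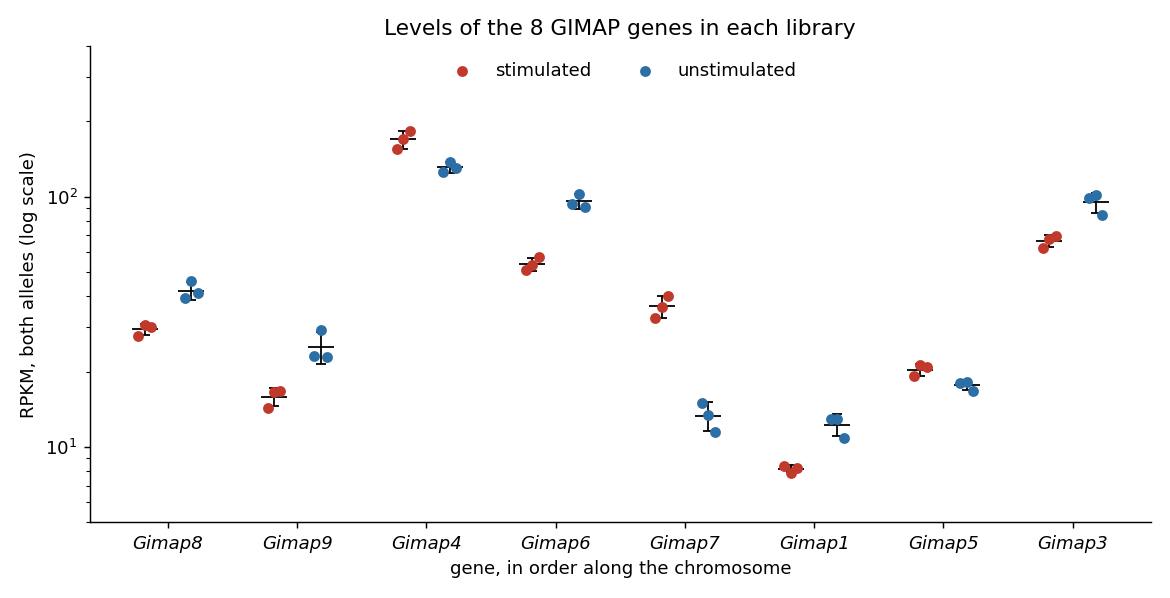
RPKM of the 8 GIMAP genes (log axis) in each library, in order along chromosome 6. Points are libraries, horizontal bars are means and vertical bars are SD (n = 3 per group); the stimulated and unstimulated points of each gene are apart from each other, with Gimap4, Gimap7 and Gimap5 higher and the other 5 lower in stimulated cells.

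Among the members linked to lymphocyte survival, Gimap5 stood at 19.1, 21.2 and 20.8 RPKM in stimulated cells and at 18.04, 18.11 and 16.8 RPKM in unstimulated cells, a rise of 0.20 ± 0.06 on the log2 scale (SE; limma, Benjamini-Hochberg adjusted p = 0.0251). The lowest stimulated value lay just above the highest unstimulated one, and the call was lost without stimulated replicate 2 (adjusted p = 0.103 in limma) or replicate 3 (0.0811), and with the replicate number as a block (0.0553). Its log2 fold change was larger with median centring (0.46) and with TMM scaling of summed allelic reads in edgeR (0.62). Gimap3, whose gene sits beside Gimap5 and has been linked to the sorting of mitochondrial genomes in mouse leukocytes, was more abundant and moved the other way. It had 62.4, 67.8 and 69.8 RPKM in stimulated cells, against 98.4, 101.4 and 84.5 RPKM in unstimulated cells. The log2 fold change was -0.50 ± 0.09 (SE, limma adjusted p = 0.00154), but -0.24 with median centring (adjusted p = 0.101) and -0.04 with TMM scaling of summed allelic reads in edgeR (adjusted p = 0.770). Gimap1, with the lowest mean level of the family in both groups, measured 8.42, 7.89 and 8.27 RPKM in stimulated cells and 12.96, 12.96 and 10.8 RPKM in unstimulated cells. Its log2 fold change of -0.52 ± 0.08 (limma adjusted p = 0.00102) became -0.26 with either of those scalings, where it missed the threshold (adjusted p = 0.0726 and 0.0739).

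Gimap4, which speeds up the death of mouse T cells once apoptosis has begun, was the most abundant member in both groups. Its levels were 155.6, 169.7 and 183.6 RPKM in stimulated cells and 125.1, 137.9 and 130.7 RPKM in unstimulated cells, so that every stimulated library lay above every unstimulated one. The log2 fold change was 0.37 ± 0.08 (SE; limma adjusted p = 0.00473), or 0.18 with quantile normalisation (adjusted p = 0.0613), 0.63 with median centring and 0.74 with TMM on summed allelic reads.

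Gimap6, the member tied to autophagy, had the largest fall. Stimulated libraries held 50.9, 53.3 and 57.1 RPKM and unstimulated libraries 93.5, 102.9 and 90.6 RPKM, which gives a log2 fold change of -0.82 with an SE of 0.07 (limma adjusted p = 6.02e-05). The lowest unstimulated library was far above the highest stimulated one, and the call held in all 16 alternatives run. The fall was smaller with median centring (-0.56), with TMM on summed allelic reads (-0.33) and in DESeq2 (-0.35).

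Of the remaining members, Gimap7, whose human protein hydrolyses GTP when it dimerises, had the largest rise of the family. It reached 32.8, 36.4 and 40.2 RPKM in stimulated cells, against 15.0, 13.5 and 11.5 RPKM in unstimulated cells. The ratio of means was 2.74 and the log2 fold change 1.39 ± 0.11 (SE; limma adjusted p = 4.15e-05), a call that held in all 16 alternatives. Gimap8, the longest GIMAP protein, with several GTP-binding domains in a row, had 27.9, 30.8 and 30.1 RPKM in stimulated and 39.2, 46.2 and 41.1 RPKM in unstimulated cells. In RPKM it fell by 0.50 ± 0.08 on the log2 scale (limma adjusted p = 0.000922), whereas summed allelic reads gave 0.03 with TMM in edgeR and 0.02 in DESeq2, neither past the threshold. Gimap9, a member with little functional description, showed 14.4, 16.6 and 16.7 RPKM in stimulated cells and 23.1, 29.3 and 22.8 RPKM in unstimulated cells. The groups stood apart, at -0.62 ± 0.11 on the log2 scale (SE; limma adjusted p = 0.00186), and with TMM on allelic reads the value was -0.26 (adjusted p = 0.101). The antisense gene Gimap1os, at 4.67 ± 0.54 RPKM in stimulated and 6.21 ± 0.87 RPKM in unstimulated cells (SD, n = 3 each), differed by -0.34 on the log2 scale (limma adjusted p = 0.0290), a value that was 0.21 with TMM and 0.20 in DESeq2 on allelic reads.

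**Figure D2:**
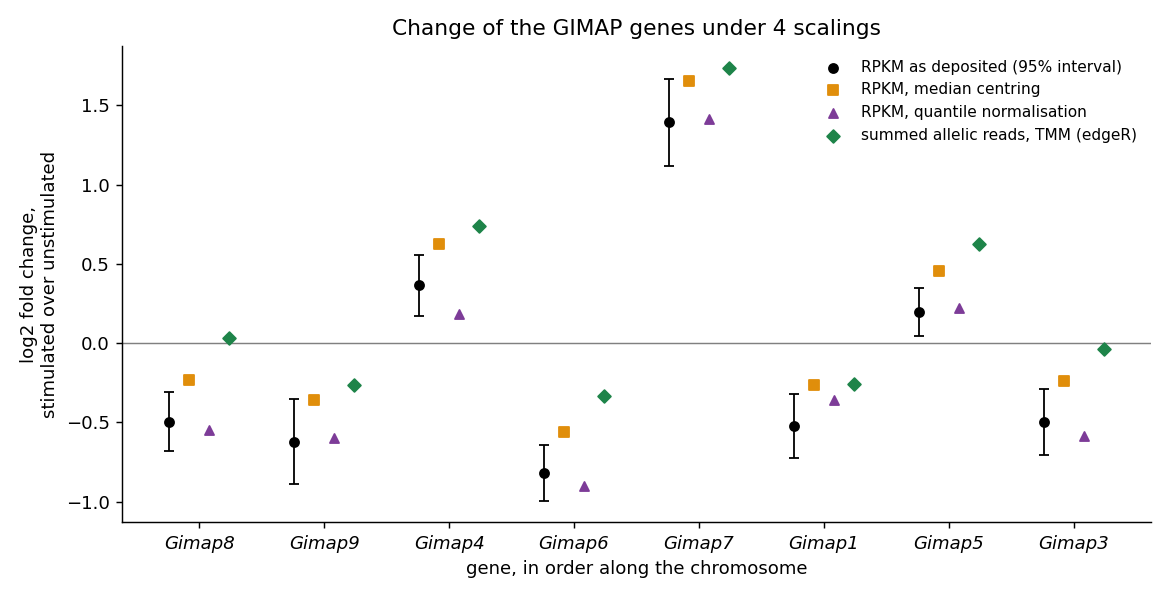
Log2 fold change of each GIMAP gene, stimulated over unstimulated, under 4 scalings; black points carry 95% intervals from limma on the RPKM as deposited. Gimap7, Gimap4 and Gimap5 are above 0 and Gimap6, Gimap9, Gimap1 and Gimap3 below 0 under all 4 scalings shown, while Gimap8 is at -0.50 as deposited and at 0.03 with TMM on summed allelic reads.

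Because RPKM is a level per length, members can be set in order, although the length used for each gene was not given. Of the exon bases of Gimap1, last in both groups, 36.0% were shared with other genes, so its place is uncertain. In stimulated cells the order by mean RPKM was Gimap4, Gimap3, Gimap6, Gimap7, Gimap8, Gimap5, Gimap9 and Gimap1, and no neighbours in that order overlapped. The unstimulated order was Gimap4, Gimap6, Gimap3, Gimap8, Gimap9, Gimap5, Gimap7 and Gimap1, where Gimap6 overlapped Gimap3 and Gimap7 overlapped Gimap1. Gimap7 thus stood above Gimap8, Gimap5 and Gimap9 in stimulated cells and below all of them in unstimulated cells. The summed level of the 8 members was 371.4, 403.6 and 426.5 RPKM in stimulated cells and 425.3, 462.1 and 408.8 RPKM in unstimulated cells, groups that overlapped. The difference of mean sums was -31.6 RPKM, but 42.6 RPKM after median centring and 0.729 reads per M on allelic reads, so no direction of the sum is given.

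Within that sum the make-up differed, on a scale that does not depend on a factor common to all genes of a library. Gimap4 made up 42.3 ± 0.63% of the summed GIMAP RPKM in stimulated and 30.4 ± 1.36% in unstimulated cells (SD, n = 3 each). Gimap7 accounted for 9.09 ± 0.31% against 3.08 ± 0.38%, and Gimap5 for 5.09 ± 0.20% against 4.09 ± 0.16%. Gimap6 made up 13.4 ± 0.25% in stimulated cells against 22.1 ± 0.14% in unstimulated cells, and Gimap3 16.7 ± 0.26% against 21.9 ± 1.23%. Gimap8 (7.39% against 9.75%), Gimap9 (3.96% against 5.79%) and Gimap1 (2.05% against 2.83%) also held smaller parts of the sum in stimulated cells. The 8 parts are tied to each other because they share 1 sum, and in none did the groups overlap. In RPKM of single genes, 83.5% of all genes tested had groups that did not overlap. A part of a sum is another measure, so that figure is not a matched background.

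The second comparison asked whether the mus and cast alleles contributed alike, from 14.9, 18.04 and 20.2 M allelic reads in the stimulated libraries and 11.9, 9.61 and 11.7 M in the unstimulated ones. Allelic reads cover only places where the strains differ, and the cast share of all autosomal reads was 49.3% to 49.4% in every library. In stimulated cells, 4 members gave more mus than cast reads (Gimap8, Gimap4, Gimap6, Gimap7) and Gimap5 gave more cast reads, while Gimap1, Gimap3 and Gimap9 did not pass the test. In unstimulated cells, 6 members gave more mus reads (Gimap8, Gimap4, Gimap6, Gimap1, Gimap5, Gimap3), none more cast reads, and Gimap7 and Gimap9 did not pass. Over the 12470 autosomal genes tested with edgeR, 20.5% were biased to mus and 15.4% to cast in stimulated cells, and 18.5% and 12.2% in unstimulated cells. Only 5435 of these genes had at least 1000 allelic reads in each group, as every member did, so this background is not matched in depth. Genes biased to cast and to mus numbered 1922 and 2557 in stimulated and 1523 and 2312 in unstimulated cells, but 2228 and 2210, and 1884 and 1753, with TMM factors per allele, which moved no call of a member. The members' median cast share was 48.0% in stimulated and 37.4% in unstimulated cells, against 49.2% and 48.9% over all these genes. Summed over the 8 members, the cast share was 46.6 ± 0.55% in stimulated and 35.7 ± 0.65% in unstimulated cells (SD, n = 3 each).

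The difference between the groups was tested itself, as the interaction of allele and stimulation. The cast share was higher in stimulated cells for 6 of 8 members (Gimap8, Gimap4, Gimap1, Gimap5, Gimap3 and Gimap6) and lower past the threshold for none, with Gimap7 at an unadjusted p under 0.05. With the replicate number as a block the counts were 6 higher, 1 lower (Gimap7) and 1 not called. DESeq2 with the same terms gave the same counts of 6, 0 and 2 not called. Of the 12470 genes, 5.95% had a higher and 4.96% a lower cast share in stimulated cells. Each member had over 1000 allelic reads in each group, and among the 5435 genes with at least that many, a background chosen after seeing the data, the figures were 9.11% and 7.38%. The members' median shift was 13.1 percentage points, against 0.11 over those 5435 genes, whose median absolute shift was 2.69 points and of which 6.79% moved by 10 points or more. Groups did not overlap in 7 of the 8 members, against 28.3% of 12447 genes with reads in all libraries. The members lie side by side on 1 chromosome in the same animals, so they are not independent of each other.

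**Figure D3:**
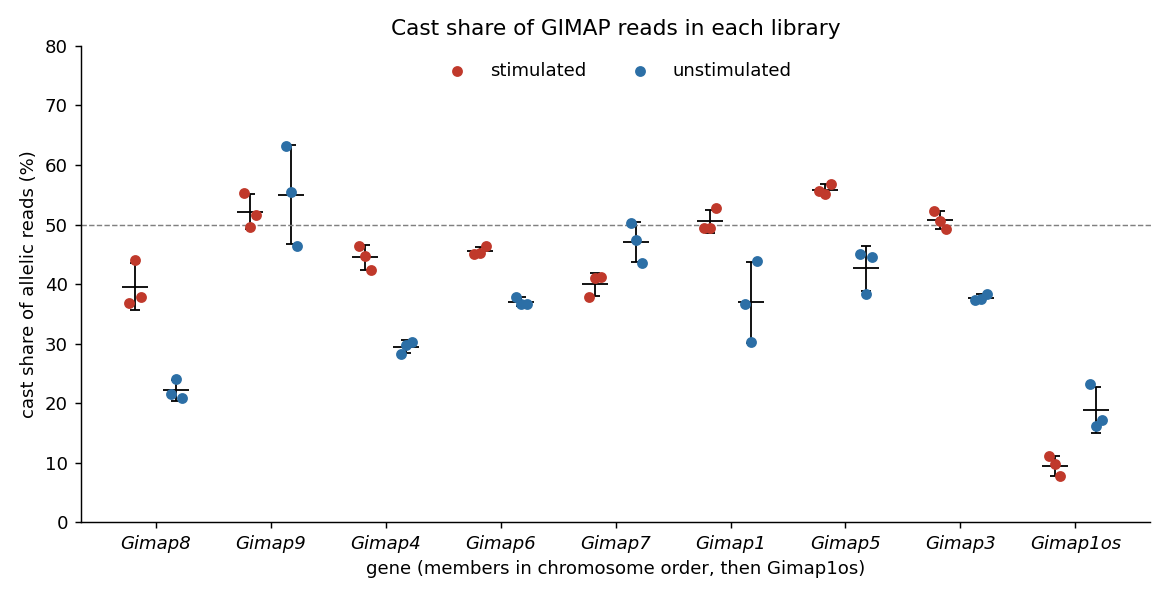
Cast share of allelic reads (%) of the 8 GIMAP genes in chromosome order and of Gimap1os, by library; horizontal bars are means, vertical bars SD (n = 3 per group) and the dashed line marks equal parts. Stimulated points lie above unstimulated ones in Gimap8, Gimap4, Gimap6, Gimap1, Gimap5 and Gimap3, below them in Gimap7 and Gimap1os, and among them in Gimap9.

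Gimap8 had the largest shift. Its cast share was 36.8, 44.1 and 37.8% in stimulated libraries and 21.5, 24.1 and 20.9% in unstimulated libraries, which lie well apart. The lowest of these, 20.9%, had a 95% exact Clopper-Pearson interval of 18.1% to 23.8%, and the highest, 44.1%, one of 41.2% to 47.0%. The ratio of cast to mus reads rose by 1.21 on the log2 scale (edgeR quasi-likelihood, Benjamini-Hochberg adjusted p = 6.04e-05). Gimap4, the member with most reads after Gimap6 in unstimulated cells, came next. It had 46.4, 44.8 and 42.3% cast reads in stimulated cells, against 28.3, 29.8 and 30.3% in unstimulated cells (log2 0.94, edgeR adjusted p = 1.74e-07). The alleles of Gimap4 were thus closer to equal in stimulated cells, with mus reads still in excess.

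The survival-linked members shifted by a like amount. Gimap5 had cast shares of 55.7, 55.1 and 56.8% in stimulated cells and 45.0, 38.4 and 44.6% in unstimulated cells (log2 0.76, edgeR adjusted p = 7.26e-05). It was the only member whose bias was past the test in opposite directions, towards cast in stimulated cells (log2 cast over mus 0.34, edgeR adjusted p = 0.000945) and towards mus in unstimulated cells (-0.43, adjusted p = 0.000264). Gimap3 had 52.3, 50.7 and 49.3% cast reads in stimulated cells and 37.3, 37.6 and 38.4% in unstimulated cells (log2 0.76, edgeR adjusted p = 2.67e-05). Its unstimulated libraries lay close together, and its stimulated ones lay around equal parts. Gimap1 had 49.4, 49.4 and 52.8% in stimulated cells and 36.6, 30.3 and 43.9% in unstimulated cells. Its unstimulated libraries were the more scattered, and its call (log2 0.81, edgeR adjusted p = 0.0108) was lost without unstimulated replicate 2 (adjusted p = 0.0534) or stimulated replicate 3 (0.0523).

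Gimap6 had the smallest of the called shifts, with little scatter between libraries. Its cast share was 45.1, 45.2 and 46.4% in stimulated libraries and 37.9, 36.6 and 36.6% in unstimulated libraries (log2 0.51, edgeR adjusted p = 7.31e-06). Gimap7 went the other way, at 37.8, 41.1 and 41.2% in stimulated cells against 50.2, 47.4 and 43.6% in unstimulated cells. Every stimulated library lay below every unstimulated one, but the interaction (log2 -0.42) had an edgeR adjusted p of 0.0639. It passed with the replicate number as a block (adjusted p = 0.0457) and without unstimulated replicate 3 (0.0364). The mus bias of Gimap7 in stimulated cells (log2 cast over mus -0.58) had an edgeR adjusted p of 8.55e-05. Gimap9 had 55.4, 49.6 and 51.6% cast reads in stimulated cells and 63.1, 55.4 and 46.4% in unstimulated cells. Its groups overlapped and the interaction was -0.18 (edgeR adjusted p = 0.709), and without unstimulated replicate 3 its remaining unstimulated libraries were biased to cast (log2 0.55, adjusted p = 0.0251). Single-library intervals were widest for these less abundant members, from 38.4% to 48.8% for Gimap7 in unstimulated replicate 3, and narrowest for Gimap4, from 41.5% to 43.1% in stimulated replicate 3.

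The antisense gene Gimap1os had the lowest mean cast share of the Gimap genes in both groups, and overlapped Gimap8 in unstimulated cells. Its cast share was 11.0, 9.78 and 7.72% in stimulated cells and 23.3, 16.2 and 17.1% in unstimulated cells, a fall of the cast-to-mus ratio by 1.16 on the log2 scale (edgeR adjusted p = 0.00741). The shift of Gimap1os was thus opposite to that of Gimap1, with which it shares bases.

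A share can move through either allele, and the members differed in which one changed. Levels of each allele were taken as reads per M allelic reads of the library, which can be compared between groups for a gene but not between genes. Cast reads of Gimap4 averaged 284 ± 15.1 in stimulated and 135 ± 8.90 in unstimulated cells (SD, n = 3 each), a ratio of 2.11, while mus reads averaged 357 ± 48.4 and 322 ± 13.98 and overlapped. Gimap5 had the same form, with cast reads at 131 ± 7.43 against 77.3 ± 7.46 (ratio 1.70) and mus reads at 103.7 ± 6.08 against 104.2 ± 11.3, which overlapped (ratio 0.996). On this scale the cast allele was the one whose groups stood apart in these genes.

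In Gimap3 and Gimap1 it was the mus allele. Cast reads of Gimap3 averaged 67.1 ± 5.40 per M in stimulated and 60.9 ± 4.55 in unstimulated cells (ratio 1.10) and overlapped. Its mus reads averaged 65.4 ± 8.68 against 100.6 ± 9.14 (ratio 0.65), so the ratios of its alleles lay on opposite sides of 1. Gimap1 had 20.3 ± 2.29 cast reads per M against 20.9 ± 2.00, which also overlapped, and 19.9 ± 1.92 mus reads per M against 36.2 ± 7.10 (ratio 0.548). Both alleles of Gimap6 were lower, at a ratio of 0.821 for cast (0.976 with TMM factors) and 0.577 for mus. Gimap9 was likewise lower for both, at 0.656 for cast and 0.756 for mus.

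In Gimap8 the alleles went in opposite directions: cast reads averaged 23.9 ± 3.67 per M in stimulated and 15.6 ± 2.37 in unstimulated cells (ratio 1.54), and mus reads 36.4 ± 1.00 against 54.5 ± 3.08 (ratio 0.667). Neither allele overlapped between the groups. Gimap7 was higher for both alleles, cast by a ratio of 2.37 (43.3 ± 5.89 against 18.3 ± 4.42 reads per M) and mus by 3.20 (64.8 ± 5.96 against 20.3 ± 2.41). No test was made on the single alleles. TMM factors raised all these ratios alike. With them Gimap8 kept its opposite directions (1.83 for cast, 0.793 for mus), while cast reads of Gimap1 stood at 1.16, above 1 in place of below it, and so did mus reads of Gimap5 at 1.18. Cast reads of Gimap3 and mus reads of Gimap4 both stood at 1.31. Mus reads of Gimap3 (0.773) and Gimap1 (0.652) stayed below 1, so with TMM factors these genes had opposite directions like Gimap8.

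**Figure D4:**
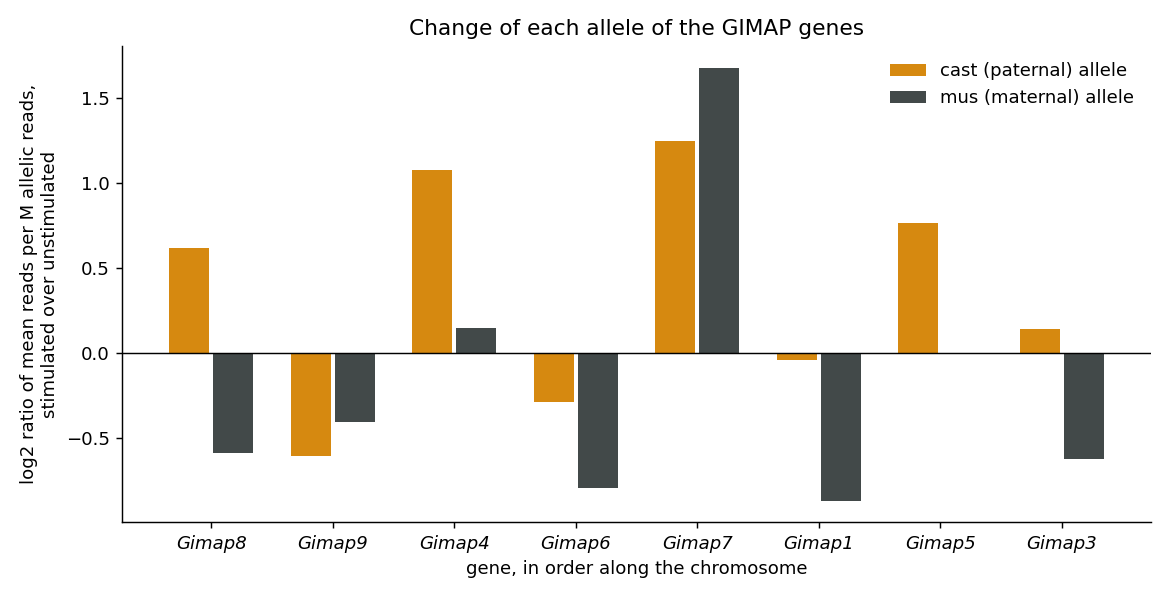
Change of each allele of the GIMAP genes, as the log2 ratio of the mean reads per M allelic reads in stimulated over unstimulated cells; paired bars are the cast (paternal) and mus (maternal) alleles, with n = 3 libraries per group and no error bars. Gimap8 and Gimap3 have bars on opposite sides of 0, Gimap7 and Gimap4 both above, and Gimap6, Gimap9 and Gimap1 both below. The mus bar of Gimap5 (ratio 0.996) is too short to be seen.

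The genes around the cluster were looked at for the same shift. Within 200 kb of it the annotation holds 31 genes besides the members and Gimap1os, of which 9 had enough allelic reads for the test. Of these 9, 0 passed in edgeR and 0 in DESeq2, which gave no adjusted p for Gm28053, and 1 had an unadjusted p under 0.05 in each tool. That gene was Sspo, with a cast share of 11.0% in stimulated and 35.3% in unstimulated cells, from 73 and 131 allelic reads in all (edgeR adjusted p = 0.177). Over all 12470 genes tested, 5.95% had a higher and 4.96% a lower cast share in stimulated cells. A count of 0 of 9 is close to that background and says little about where the shift ends. Depth also differed widely between the 9 neighbours. Lrrc61, on the proximal side, had 1583 reads in stimulated and 1242 in unstimulated cells, about as many as Gimap9, and its cast share was 66.1 ± 1.24% against 70.3 ± 2.28% (SD, n = 3 each; edgeR adjusted p = 0.365). Gm28053, inside the cluster, had 98 and 44 reads. In total level, 8 of the neighbours were tested with limma: 4 were higher and 3 lower in stimulated cells, and 1 was not called. Among all genes tested with limma, 31.2% were higher and 48.9% lower. Repin1, a zinc finger gene on the proximal side, stood at 4.66 ± 0.18 against 1.11 ± 0.14 RPKM (SD, n = 3 each, log2 1.42), and Lrrc61 at 8.26 ± 0.69 against 11.8 ± 0.49 RPKM (log2 -0.47).

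**Figure D5:**
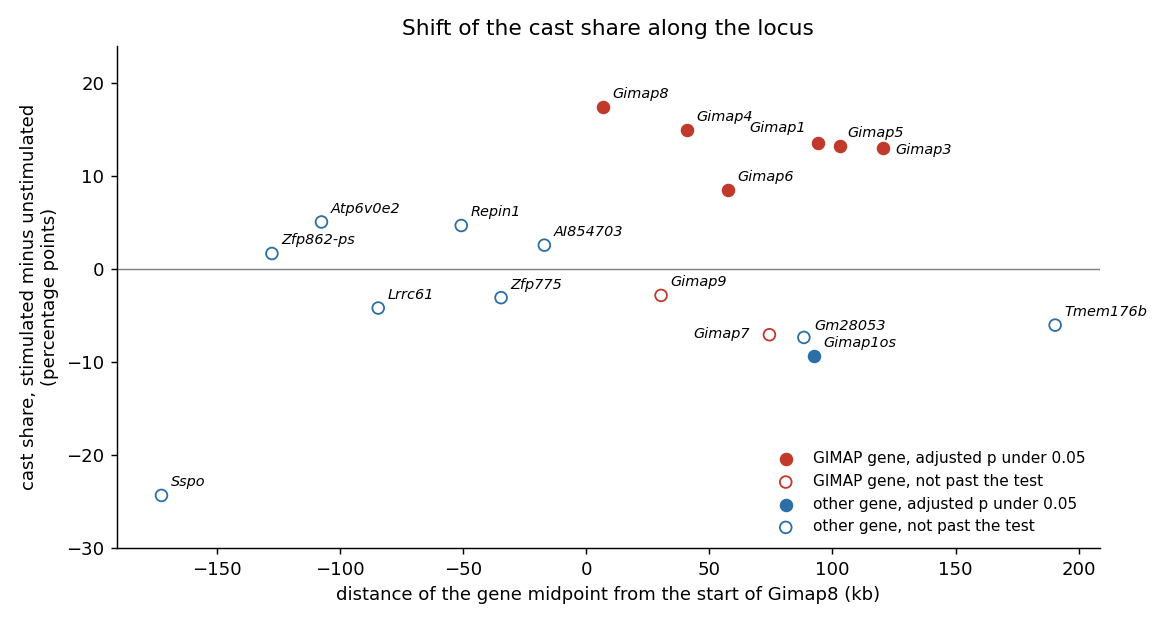
Shift of the cast share (stimulated minus unstimulated, in percentage points) against the distance of each gene's midpoint from the start of Gimap8 in kb, for the GIMAP genes, Gimap1os and the neighbours tested. Filled points had an edgeR adjusted p under 0.05; 6 GIMAP genes lie between 8.51 and 17.4 points, with Gimap9 (-2.82), Gimap7 (-7.05) and Gimap1os (-9.33) among them on the chromosome.

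Gene families of which some members have been tied to GIMAP proteins changed in both directions, and not every gene listed is a known partner. Of 16 BCL-2 family genes, 7 were higher, 5 lower and 4 not called in stimulated cells, where 31.2% of all genes tested were higher and 48.9% lower. Their median was 0.44 on the log2 scale, against -0.24 for every gene tested. Bcl2l1, which encodes the survival protein BCL-XL, averaged 39.1 ± 0.91 RPKM in stimulated and 9.04 ± 3.32 RPKM in unstimulated cells (SD, n = 3 each, log2 2.05). The death-promoting Bmf (log2 -2.06), Bcl2l11 (-1.88) and Pmaip1 (-1.43) were lower. The list had no single direction by role: outside the rule for named genes and chosen after their values were seen, the death-promoting Bak1 (log2 0.96) and Bax (0.60) were higher and the survival gene Mcl1 (-1.22) was lower. Bcl2 itself, also chosen after its values were seen because it is a reported partner of GIMAP proteins, stood at 50.6 ± 4.11 RPKM against 36.4 ± 3.82 RPKM (log2 0.47, limma adjusted p = 0.00378).

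Of 7 genes of the ATG8 autophagy family and GSK3 kinases, 2 were higher and 5 lower, and their median was -0.61. With 31.2% of all genes tested higher and 48.9% lower, these counts say little about the list. Gabarapl1 was higher (log2 1.94), and Map1lc3b (-2.27), Map1lc3a (-1.59) and Gabarap (-0.74) were lower. Gabarapl2, the partner of Gimap6 and also singled out after its values were seen, averaged 9.56 ± 0.45 RPKM in stimulated and 14.9 ± 1.39 RPKM in unstimulated cells (log2 -0.59, limma adjusted p = 0.000506). Gimap6 and the gene of its partner were both lower in stimulated cells in RPKM, as were 48.9% of all genes tested. A link between the levels of Gimap6 and Gabarapl2 was not tested.

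Other immune GTPases of the IRG and GBP families, which act against intracellular pathogens and respond to interferon, had 3 higher, 9 lower and 1 not called of 13, with a median of -0.61. As a background for this and the next lists, 31.2% of all genes tested were higher and 48.9% lower. Gbp9 (log2 -2.73), Gbp4 (-1.98), Gbp8 (-1.91) and Gbp6 (-1.16) were lower in stimulated cells. Of 19 genes of quiescent T cells, 18 were lower and 1 was higher, with a median of -1.93. Klf2, a factor that keeps T cells at rest, averaged 1.25 ± 0.17 RPKM in stimulated and 314 ± 25.6 RPKM in unstimulated cells (SD, n = 3 each). Klf3 (log2 -4.74), Tsc22d3 (-4.45) and S1pr1 (-4.34) were lower too. The range of the GIMAP genes, -0.82 to 1.39, lies above that median throughout. Of the 13 T cell markers, 3 were higher, 6 lower and 4 not called (median -0.19). All markers tested of B cells (10), myeloid cells (11) and NK cells (7) were lower in stimulated cells, as were 7 of 8 erythroid and platelet markers, with 1 not called. Of the 2 endothelial markers tested, 1 was higher and 1 lower.

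The genes most like the family were sought by distance to the mean profile of the 8 members over the 6 libraries, in log2(RPKM + 1) centred per gene. The nearest were Tmem170 (distance 0.0640), Kat2a (0.0786), Cytip (0.0799), Rnf114 (0.0834) and Heatr5b (0.0840), with log2 fold changes of -0.11 to -0.14. The members themselves lay further off, at 0.405 for Gimap5, 0.463 for Gimap3 and up to 1.87 for Gimap7. The mean profile therefore describes no member well, since rises and falls within the family offset each other in it.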

How the data were processed

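RPKM values for both alleles together and whole-number counts per gene of mus and cast reads were deposited by the authors, per the file headers, with 1 column per library and allele and no pooling. Alignment used STAR 2.7.1a, counting featureCounts, and the build was mm10, per the submitters' processing notes. The allele assignment, annotation, strand setting and RPKM denominator were not given in the notes and headers used. Gene positions come from GENCODE M21 on mm10.

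Levels were compared with limma 3.58.1 (R 4.3.3, trended, two-sided) on log2(RPKM + 1), keeping the 13288 genes that reached an RPKM of 1 in 3 or more libraries. Fold changes are on that scale, which understates changes of low genes. Cast shares were compared with edgeR 4.0.16 (quasi-likelihood, two-sided) on the deposited counts, with 1 term per library and a cast term per group, for 12470 autosomal genes that had 30 or more allelic reads summed within each group. Benjamini-Hochberg adjustment ran over all genes of a fit, with 0.05 as the threshold. DESeq2 1.42.0 served as an alternative. The tests were tried on simulated data first. Those data had no pairing of replicates and no read mates counted apart, so the trial does not speak to either. Intervals of single shares cover counting error only. Low counts were mostly even (72.8% of counts from 1 to 20, against 50.2% of counts from 1001 to 2000), and if read mates were counted apart the intervals are too narrow.

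Replicates are numbered alike in both groups, without a statement that equal numbers are the same animal. Over 9043 genes, log cast-to-mus ratios centred within groups correlated at 0.28, 0.30 and 0.18 between equal numbers (across genes, which are not independent replicates), so equal numbers count as pairs for shares; the reported fit has no replicate term, and the blocked value stands beside it where it changes a call. Diploid levels correlated at 0.00603, 0.0611 and 0.0908 and were left unpaired. The labels call the replicates biological without naming animals, and p-values measure the spread between these samples.

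The members and gene lists were chosen with earlier results of these data known. Named were all members, other genes called Gimap, examples of the genes within 200 kb, up to 4 genes of each list with the largest fold change and the 5 genes nearest to the mean profile.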

Additional observations from a re-analysis of the deposited data

Results flagged for a closer look

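The difference between stimulated and unstimulated cells in the ratio of cast to mus reads was itself past the test for 6 members and for Gimap1os. The interaction was 1.21 on the log2 scale for Gimap8, 0.94 for Gimap4, 0.81 for Gimap1, 0.76 for Gimap5, 0.76 for Gimap3, 0.51 for Gimap6 and -1.16 for Gimap1os (edgeR quasi-likelihood, Benjamini-Hochberg over 12470 genes). Each of these 7 genes had groups that did not overlap, with 3 of 3 stimulated libraries on the same side of all unstimulated ones. They were picked by a test on the same libraries, so this separation is not separate evidence. Over all 12470 genes, 5.95% had a higher and 4.96% a lower cast share in stimulated cells. Groups did not overlap in 28.3% of 12447 genes. Gimap1 and Gimap1os share bases on opposite strands and carried shifts of opposite sign. Groups of 3 libraries were too small to be searched for single outlying samples.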

How the results depend on the processing

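Gimap6 and Gimap7 kept the direction and the call of their level in all 16 alternatives. With TMM in edgeR and in DESeq2 on summed allelic reads, Gimap8 changed sign (0.034 and 0.019), as did Gimap1os (0.21 and 0.20), and Gimap9, Gimap1 and Gimap3 missed the threshold. On the same reads with library sizes alone, Gimap9 (-0.51), Gimap1 (-0.51) and Gimap3 (-0.28) kept their calls and Gimap8 was -0.22 (edgeR adjusted p = 0.0602), so the TMM factors ended those 3 calls. The difference in the summed GIMAP level changed sign with median centring (42.6 RPKM) and on allelic reads (0.73 reads per M), and ran from -44.6 to -16.5 RPKM when 1 library was left out. Numbers of genes called for level (9921 to 13911 over all alternatives, 10642 as reported) and for a changed share (970 to 1686, 1361 as reported) stayed within 1.5 times of the reported ones. With a replicate block, 10464 genes were called for level, where only Gimap5 of the members lost its call (limma adjusted p = 0.0553), and 1686 for a changed share, where Gimap7 gained one (log2 -0.42); the summed level stayed at -31.6 RPKM. The block changed no other call of a member. The 6 members with a higher cast share kept it under every filter, with TMM factors per allele, with X-linked genes included and in DESeq2, and Gimap1 lost it without unstimulated replicate 2 or stimulated replicate 3. Allelic depth limits Gimap9, Gimap7 and Gimap1 most, with fewer than 2000 reads each in unstimulated cells.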
